A study of Danio rerio with 16 samples.

Results

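The sodium pump alpha subunits are the catalytic chains of the sodium/potassium ATPase, and their transcripts were followed in zebrafish embryos that lack functional Rad21, the kleisin subunit of the cohesin ring. Members were chosen by symbol, as probe sets whose only gene symbol in the platform annotation is that of an alpha subunit, and those described came to 5 of the 15502 probe sets tested and 5 of the 8793 genes named, with 1 probe set each, for atp1a1a.2, atp1a1a.3, atp1a1a.4, atp1a1a.5 and atp1a1b. No probe set carried atp1a2a or atp1a1a.1 as its only symbol, so these genes were not analysed here. Membership went by symbol, but the family itself was chosen by measured values, since earlier results of these data had shown the log2 intensity of atp1a1a.2 to be low in mutants at 24 hours post fertilisation (hpf). The values of atp1a1a.2 in any comparison that uses the 24 hpf arrays of either genotype are therefore given as a description, without a test.

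The mutants were homozygous for the nz171 allele of rad21 and the others were wild type, and both were collected as dechorionated embryos at 24 or 48 hpf. Each of the 4 groups (mutant at 24 hpf, wild type at 24 hpf, mutant at 48 hpf, wild type at 48 hpf) had 4 pools of 50 embryos, with 1 Affymetrix zebrafish array per pool and 16 arrays in all. No agent was applied, and a pool is a whole-embryo mixture in which fewer cells of a type and less RNA per cell cannot be told apart.

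The pump moves sodium out of the cell and potassium in at the expense of ATP. Each pump pairs an alpha subunit, which binds the ions and hydrolyses ATP, with a beta subunit, which the alpha chain needs to reach the plasma membrane, and small FXYD proteins tune its activity. In fish the pump powers ion uptake in skin and gill ionocytes and reabsorption in the kidney tubule, and in excitable tissue it restores the ion gradients that nerve and muscle activity runs down. Zebrafish carry a run of neighbouring atp1a1a copies. In the RefSeq annotation of assembly GRCz12tu the order of protein-coding genes there is atp1a1a.4, atp1a1a.1, atp1a1a.2, atp1a1a.3 and atp1a1a.5, with no other protein-coding gene between them. Similar copies could share hybridisation signal, which the files do not allow to be measured.

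The quality of the arrays set the limits of these values. Array medians lay between 45.5 and 48.1 in linear intensity. Probe sets for 5 foreign sequences read between 2.77 and 7.22 in log2 intensity with a median of 4.66, which serves as a mark of background, and the highest of them came from pd2EGFP. For muscle actin, the level of the 3' control exceeded that of the 5' control on the log2 scale by 3.57 to 3.78 in mutants at 24 hpf, against 3.03 to 3.15 in wild types, and 3.39 to 4.08 in mutants at 48 hpf, against 2.41 to 2.81 in wild types. For gapdh the same excess was 0.43 to 0.60 in mutants at 24 hpf, against 0.29 to 0.59 in wild types, and 0.58 to 0.65 in mutants at 48 hpf, against 0.55 to 0.63 in wild types, so that the genotypes overlapped for gapdh and not for actin. The part of these RNA quality signs in the differences below was not tested. The mutated gene, rad21a, averaged 6.80 ± 0.20 in mutants and 10.38 ± 0.20 in wild types at 24 hpf. At 48 hpf it averaged 6.32 ± 0.39 in mutants and 10.24 ± 0.18 in wild types (log2 intensity, SD, n = 4 each).

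Values are log2 intensities, and a change is a log2 difference, positive where it is higher in mutants or at the later time. Errors after ± are the standard deviation (SD, n = 4) for a group mean and the standard error (SE) of the limma fit for a change. Adjusted p-values are from limma with Benjamini-Hochberg adjustment over the 15502 probe sets, and a change was called under 0.05. Of all probe sets, 4.09% were called lower and 3.26% higher in mutants at 24 hpf. At 48 hpf 6.81% were called lower and 8.76% higher. The counts for each gene list below are to be read beside these shares. Levels of different probe sets have no common scale and are not set against each other.

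Among the skin and kidney type subunits, atp1a1a.2 showed the widest differences between groups. In zebrafish this gene is known from ionocytes of the skin and from the pronephros. Its log2 intensity was 5.59, 5.49, 5.57 and 6.69 in the 24 hpf mutants, against 7.91, 8.04, 7.76 and 7.92 in wild types. The 48 hpf mutants gave 8.74, 8.09, 8.73 and 8.57, against 9.19, 9.07, 8.68 and 9.43 in the wild types of that age. Every mutant array at 24 hpf was below every wild type array of that age, whereas at 48 hpf the genotypes overlapped. The 24 hpf mutant values lay above the median of the foreign sequences but under their highest value of 7.22.

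The level of atp1a1a.2 at 24 hpf was 4.21-fold lower in mutants, a log2 change of -2.07 ± 0.23 (SE). Replicate 4 of the 24 hpf mutants read 6.69 and the other mutant arrays at most 5.59, and without it the change was -2.36. At 48 hpf the change was -0.56 ± 0.23 and did not pass (adjusted p = 0.109, 95% interval -1.03 to -0.08). The same difference of -0.56 passed when replicate 4 of the 24 hpf mutants was left out of the common estimate of spread (adjusted p = 0.0207). Ordered by level, the groups ran mutant at 24 hpf, wild type at 24 hpf, mutant at 48 hpf and wild type at 48 hpf, and of these neighbours only the last pair overlapped.

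The level of atp1a1a.2 was higher at 48 than at 24 hpf in both genotypes. The change over this day was 2.70 ± 0.23 in mutants, a 6.49-fold difference, and 1.18 ± 0.23 in wild types, a 2.27-fold difference. The genotype change at 48 hpf minus that at 24 hpf was 1.52 ± 0.32. In fits that each left out 1 array this value ranged from 1.38 to 1.80.

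**Figure D1:**
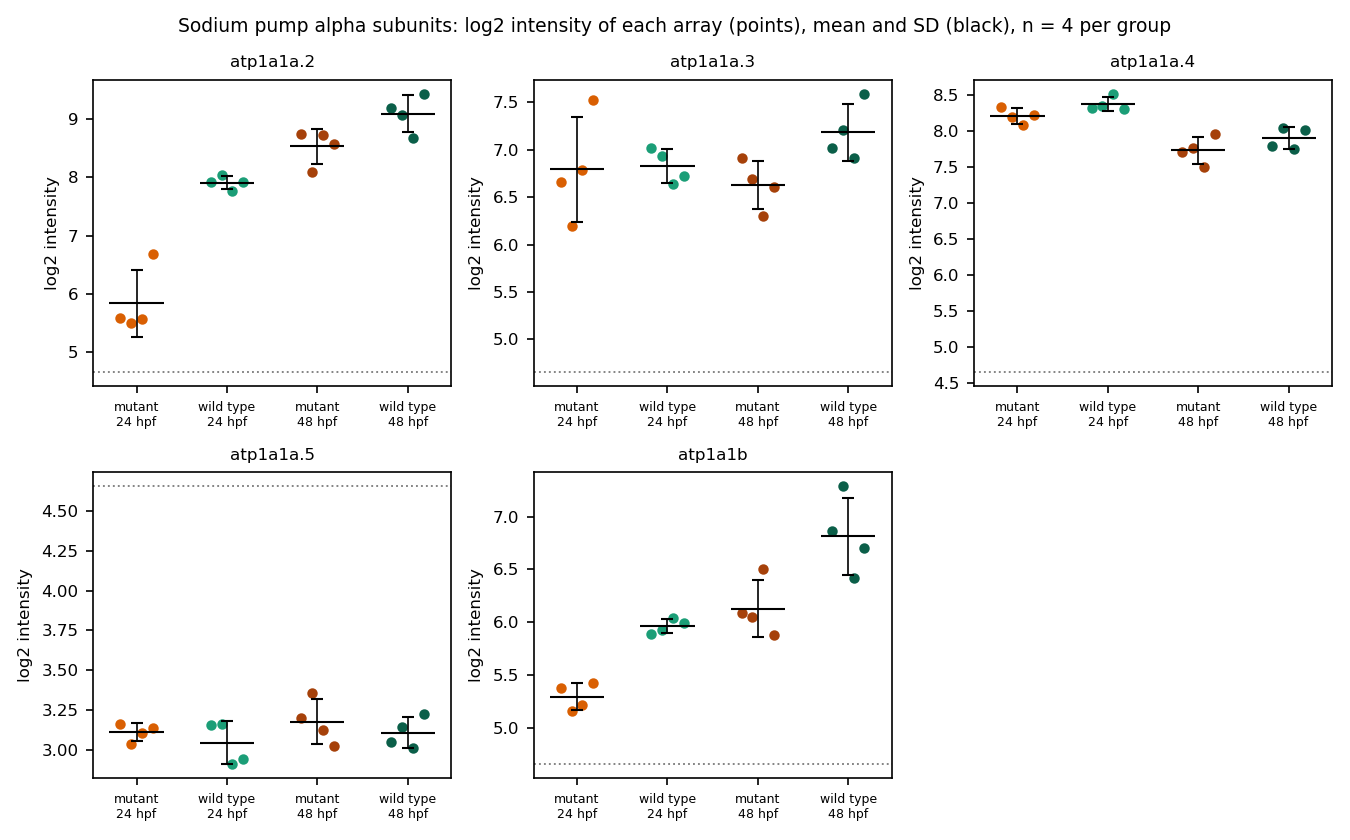
Log2 intensity of each alpha subunit probe set by group; points are the 4 arrays of a group in replicate order, black lines the mean and SD, and the dotted line the median of the foreign sequences (4.66). The 24 hpf mutants sit apart from the other groups for atp1a1a.2 (mean 5.83, against 7.91 in wild types), and all arrays of atp1a1a.5 lie under the dotted line.

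None of the other 3 measured copies of the atp1a1a run was called between genotypes by limma, and at an unadjusted p under 0.05 only atp1a1a.3 at 48 hpf passed. For atp1a1a.3 the log2 intensity was 6.66, 6.19, 6.79 and 7.53 in the 24 hpf mutants, against 7.02, 6.94, 6.64 and 6.72 in wild types, a change of -0.04 ± 0.22 (adjusted p = 0.963, 95% interval -0.50 to 0.43). Its mutant arrays lay on both sides of the wild type ones, and replicate 4 was again the highest. The 48 hpf mutants gave 6.91, 6.69, 6.31 and 6.61, against 7.02, 7.21, 6.91 and 7.59 in the wild types of that age, a change of -0.55 ± 0.22 that did not pass (adjusted p = 0.100). Without replicate 4 of the 24 hpf mutants that value passed (adjusted p = 0.0335), and the sign at 24 hpf rested on single arrays, with changes between -0.28 and 0.17 when each array was left out. Over time atp1a1a.3 was not called, with -0.17 ± 0.22 in mutants (adjusted p = 0.635) and 0.35 ± 0.22 in wild types (adjusted p = 0.245).

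The pronephric duct subunit atp1a1a.4 went the opposite way with age. It averaged 8.20 ± 0.11 in mutants and 8.37 ± 0.10 in wild types at 24 hpf, and 7.73 ± 0.19 in mutants and 7.90 ± 0.15 in wild types at 48 hpf (SD, n = 4 each). Between 24 and 48 hpf it fell in mutants (-0.48 ± 0.11, adjusted p = 0.00339) and in wild types (-0.47 ± 0.11, adjusted p = 0.00269), and in both genotypes the ages did not overlap. Its genotype changes of -0.16 ± 0.11 at 24 hpf (adjusted p = 0.442) and -0.17 ± 0.11 at 48 hpf (adjusted p = 0.320) were not called, with 95% intervals of -0.38 to 0.06 and -0.39 to 0.05. For atp1a1a.5, a subunit of proton-secreting ionocytes in zebrafish, every array read between 2.91 and 3.36, under the median of the foreign sequences. A difference could therefore be missed with this probe set. Its genotype changes were 0.07 ± 0.09 at either age (adjusted p = 0.787 and 0.709).

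The protein-coding genes on the atp1a1a.4 side of the run were measured too. The nearest, wu:fk30a06, read -0.37 at 24 hpf (adjusted p = 0.0660) and -0.23 at 48 hpf (adjusted p = 0.227). The next, rcan1b, a calcineurin regulator, read -0.07 at 24 hpf (adjusted p = 0.849) and rose by 0.52 at 48 hpf (adjusted p = 0.00659), at a mean level of 4.06, under the median of the foreign sequences.

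The subunit atp1a1b, whose transcripts mark radial glia in zebrafish, was lower in mutants at both ages. Its log2 intensity was 5.38, 5.16, 5.22 and 5.42 in the 24 hpf mutants, against 5.88, 5.93, 6.04 and 5.99 in wild types. The 48 hpf mutants gave 6.09, 6.05, 6.51 and 5.88, against 6.86, 7.29, 6.42 and 6.70 in the wild types of that age. The genotypes did not overlap at 24 hpf, and at 48 hpf the highest mutant array lay above the lowest wild type array. The group means of atp1a1b, 5.29 to 6.82, lay above the median of the foreign sequences but under their highest value of 7.22.

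The fall of atp1a1b was 1.59-fold at 24 hpf (-0.67 ± 0.16, adjusted p = 0.0146) and 1.61-fold at 48 hpf (-0.69 ± 0.16, adjusted p = 0.00581). Both calls held in every fit that left out 1 array, with adjusted p-values up to 0.0466 at 24 hpf and up to 0.0202 at 48 hpf. Over the day it rose in mutants by 0.84 ± 0.16 (adjusted p = 0.000894) and in wild types by 0.85 ± 0.16 (adjusted p = 0.000524). The mutants at 48 hpf thus averaged 6.13 ± 0.27, close to the 5.96 ± 0.07 of wild types a day younger (SD, n = 4 each), and that pair of groups overlapped.

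Markers of glia were read beside atp1a1b and did not all go the same way. Of 11 measured genes of the glia and radial glia list, 2 fell, 1 rose and 8 did not pass at 24 hpf (median change -0.07, against 0.00037 over all probe sets), and 4 fell, 1 rose and 6 did not pass at 48 hpf (median -0.50, against 0.03 over all probe sets). The radial glial lipid-binding gene fabp7a fell by 1.54 at 24 hpf and by 1.95 at 48 hpf, and the glutamine synthetase gene glulb fell by 0.92 at 24 hpf and was called lower at 48 hpf as well. The calcium-binding gene s100b rose by 2.29 at 48 hpf. The gene that rose at 24 hpf, named after its values were seen, was the neural crest and glial factor sox10 (0.51, adjusted p = 0.0209). The radial glial filament gene gfap, also named after its values were seen, read 0.39 at 24 hpf without overlap of the genotypes but was not called (adjusted p = 0.145). The summed intensity of the list lay between 2856 and 2991 in mutants at 24 hpf, against 3546 to 3947 in wild types, and between 2445 and 3023 in mutants at 48 hpf, against 4293 to 4786 in wild types. This sum is linear and weighs bright genes most, such as glulb (mean 9.41 in mutants and 10.33 in wild types at 24 hpf). It does not describe the list as a whole, of which 8 genes did not pass at 24 hpf. The part of glial content in the values of atp1a1b was not tested.

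Neuronal markers were read in the same pools. Of 16 measured genes of the neuron list, 1 rose, 2 fell and 13 did not pass at 24 hpf (median change 0.16), and 1 rose, 3 fell and 12 did not pass at 48 hpf (median -0.03). The growth cone gene gap43 rose by 0.57 and 0.68, the intermediate filament gene inab fell by 1.06 and 0.90, and the motor neuron factor isl2a fell by 0.55 and 1.03, at 24 and 48 hpf; isl1a fell by 0.93 at 48 hpf on its main probe set, with another at -0.31 that was not called. At 24 hpf the call of gap43 ended without replicate 3 or 4 of the mutants or 1 of the wild types (adjusted p up to 0.0738), and that of isl2a without replicate 4 of the mutants or 3 of the wild types (up to 0.0569). With age 12 of the 16 rose and 1 fell in mutants (11% and 12.6% of all probe sets), and 15 rose in wild types (12.6%). The summed intensity of the list lay between 3616 and 6737 in mutants at 48 hpf, against 3868 to 5229 in wild types. The part of neuronal content in the values of the alpha subunits was not tested.

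Counted over the 5 described, 2 of 5 probe sets were lower in mutants at 24 hpf and 0 were higher, where 7.35% of all probe sets were called, 4.09% lower and 3.26% higher. Leaving aside atp1a1a.2, which led to the choice of the family, 1 of 4 was lower, so the count of 2 is a description. At 48 hpf 1 of 5 was lower (6.81% of all probe sets), and 0 were higher (8.76%). The genotypes did not overlap for 2 of 5 at 24 hpf (14.6% of all probe sets) and for 0 of 5 at 48 hpf (17.8%). Without atp1a1a.2 these counts were 1 of 4 and 0 of 4, and the 2 of 5 is a description. At an unadjusted limma p under 0.05 the counts were 2 of 5 at 24 hpf (20.5% of all probe sets) and 3 of 5 at 48 hpf (27.9%), or 1 of 4 and 2 of 4 without atp1a1a.2. The median change of the 5 was -0.16 at 24 hpf and -0.55 at 48 hpf, against 0.00037 and 0.03 over all probe sets. Both medians include atp1a1a.2, so they are descriptions and are not read as a shift of the family. Leaving aside atp1a1a.2, the difference between the genotype changes at the 2 ages was called by limma for 0 of 4, and 0 of 4 had an unadjusted p under 0.05, where 1.45% of all probe sets were called, 0.606% in the positive direction.

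**Figure D2:**
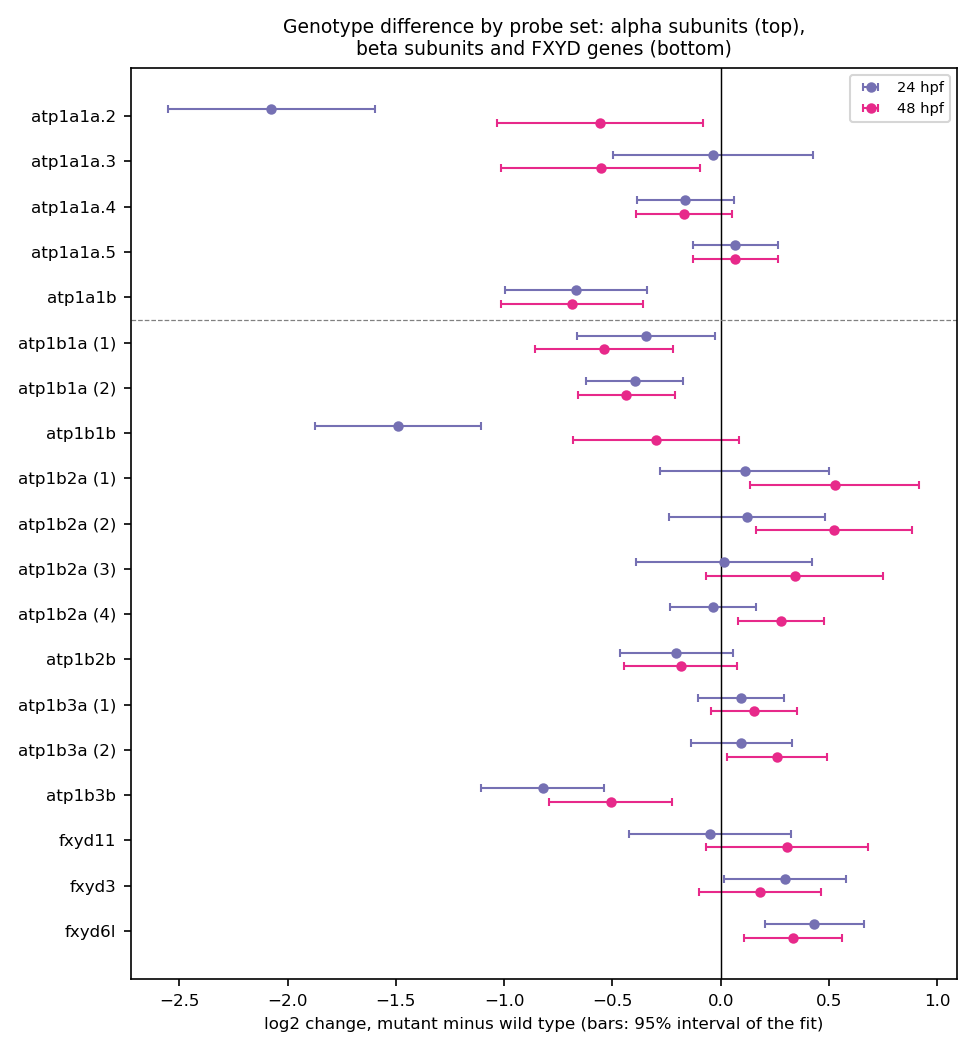
Log2 change, mutant minus wild type, of each probe set of the alpha subunits (top) and of the beta subunits and FXYD genes (bottom) at 24 and 48 hpf; points are the fitted changes, bars their 95% intervals, and numbers in brackets order the probe sets of a gene from bright to dim. The 24 hpf points of atp1a1a.2 (-2.07) and atp1b1b (-1.49) lie farthest to the left, and their 48 hpf points are nearer 0.

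With age, 2 of 5 probe sets rose and 1 fell in mutants, where 11% of all probe sets rose and 12.6% fell; without atp1a1a.2, 1 of 4 rose and 1 fell. In wild types 2 of 5 rose and 1 fell, where 30.3% of all probe sets were called, 12.6% higher and 17.7% lower. Without atp1a1a.2, 1 of 4 rose and 1 fell in wild types. The ages did not overlap for 3 of 5 in mutants (25% of all probe sets) and for 3 of 5 in wild types (30.6%). Without atp1a1a.2 it was 2 of 4 in each genotype. The gene atp1a1b rose and atp1a1a.4 fell in both genotypes.

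**Figure D3:**
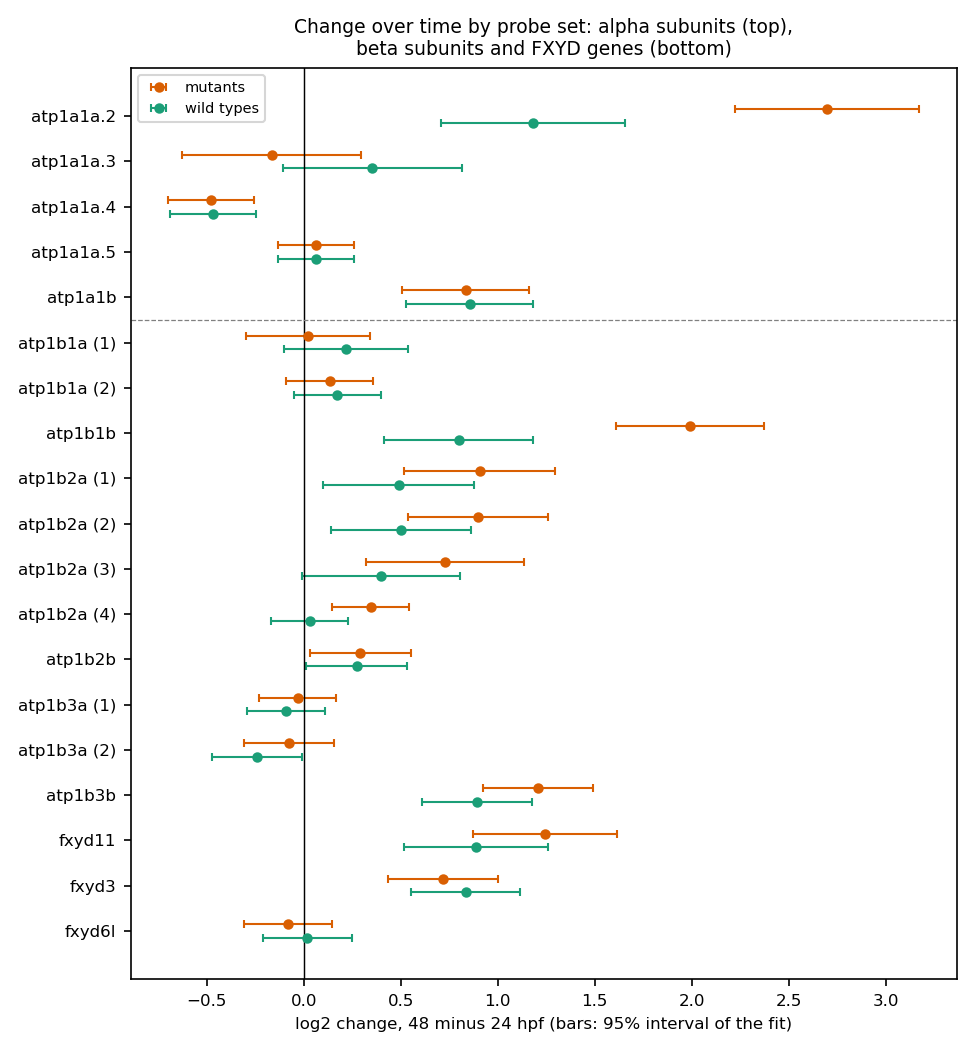
Log2 change, 48 minus 24 hpf, in mutants and in wild types for the same probe sets; points are the fitted changes and bars their 95% intervals. The mutant and wild type points of atp1a1b (0.84 and 0.85) and of atp1a1a.4 (-0.48 and -0.47) nearly coincide, whereas those of atp1a1a.2 (2.70 and 1.18) and atp1b1b (1.99 and 0.80) are apart.

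The beta subunits, the partners of the alpha chain, differed among themselves. Of 6 measured beta subunit genes, 2 fell and 4 did not pass at 24 hpf (median change -0.27), and 2 fell and 4 did not pass at 48 hpf (median -0.24). The clearest was atp1b1b, a beta subunit of ionocytes in zebrafish. Its log2 intensity was 6.12, 5.79, 6.12 and 6.59 in the 24 hpf mutants, against 7.79, 7.73, 7.56 and 7.50 in wild types. The 48 hpf mutants gave 8.06, 7.91, 8.44 and 8.18, against 8.55, 8.36, 7.97 and 8.89 in the wild types of that age. All mutant arrays were below all wild type arrays at 24 hpf, with mutant replicate 4 the highest of its group as for atp1a1a.2, and at 48 hpf the genotypes overlapped.

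The fall of atp1b1b at 24 hpf was 2.81-fold (-1.49 ± 0.18, adjusted p = 0.000109), and at 48 hpf the change was -0.30 ± 0.18 (adjusted p = 0.313, 95% interval -0.68 to 0.09). The difference between these changes was 1.19 ± 0.26 (adjusted p = 0.0275). That difference kept its direction in every fit, but its call ended without any 1 of replicates 1, 2 and 3 of the 24 hpf mutants, 1 and 2 of the 24 hpf wild types, 3 of the 48 hpf mutants or 2 of the 48 hpf wild types (adjusted p up to 0.0620). It also ended with an offset of 16 added before log2 (1.02, adjusted p = 0.0520). From 24 to 48 hpf atp1b1b rose by 1.99 ± 0.18 in mutants (adjusted p = 1.15e-06) and by 0.80 ± 0.18 in wild types (adjusted p = 0.00294).

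Over the 16 arrays atp1b1b followed atp1a1a.2 more closely than any other of the 8051 genes ranked, with a Pearson r of 0.988, and the deviations of the arrays from their group means had an r of 0.836. The arrays share their group, RNA and labelling, so these values describe likeness over these arrays and carry no test. The array labelled mutant replicate 4 at 24 hpf was high for both genes.

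**Figure D4:**
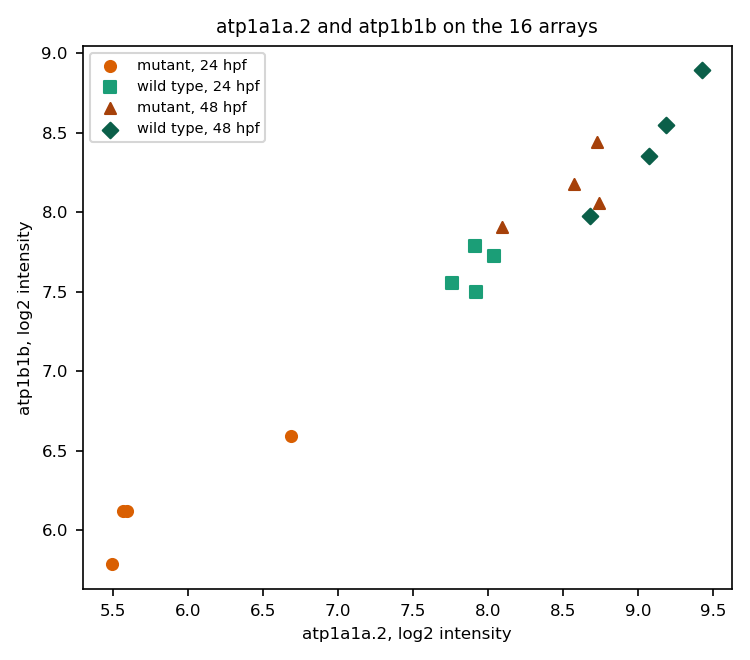
Log2 intensity of atp1b1b against that of atp1a1a.2 on the 16 arrays, with a symbol for each group. The 24 hpf mutants lie at the lower left, between 5.49 and 6.69 for atp1a1a.2, and the 48 hpf wild types reach the upper right, up to 9.43.

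Of the other beta subunits, the gene atp1b3b fell at 24 hpf (-0.82 ± 0.13, adjusted p = 0.00121) and at 48 hpf (-0.51 ± 0.13, adjusted p = 0.0155), with no overlap between genotypes at either age, and it rose over time in both. For atp1b1a, the partner of the alpha subunit in heart and kidney, the brighter probe set read -0.34 ± 0.15 at 24 hpf (adjusted p = 0.201) and fell by 0.54 at 48 hpf (adjusted p = 0.0211), and the other fell at both ages (-0.40, adjusted p = 0.0306, and -0.44, adjusted p = 0.00938). The call of the brighter one at 48 hpf ended without replicate 2 or 3 of the mutants or 1 or 2 of the wild types (adjusted p up to 0.0700). The beta subunit atp1b2a, known from brain, read 0.11 ± 0.19 at 24 hpf (adjusted p = 0.831) and 0.53 ± 0.19 at 48 hpf (adjusted p = 0.0643); of its 3 other probe sets 1 rose at 48 hpf (0.52, adjusted p = 0.0472). The values of atp1b3a, 0.10 and 0.15, and of atp1b2b, -0.20 and -0.19, were not called at 24 or 48 hpf (adjusted p from 0.314 to 0.673).

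Of the 3 measured FXYD genes, 1 rose and 2 did not pass at either age (median change 0.30 at 24 hpf and 0.31 at 48 hpf). That gene was fxyd6l, which rose by 0.43 ± 0.11 at 24 hpf (adjusted p = 0.0214) and 0.33 ± 0.11 at 48 hpf (adjusted p = 0.0448). At 24 hpf the call ended without replicate 4 of the mutants or 3 or 4 of the wild types (adjusted p up to 0.0676). At 48 hpf it ended under 11 of the 16 fits that left out 1 array and with arrays centred on their median (adjusted p = 0.0602), with cyclic loess (0.0723), with the replicate number as a block (0.0502) and with the 48 hpf arrays alone (0.130). The genes fxyd3 (0.30, adjusted p = 0.212, and 0.18, adjusted p = 0.414) and fxyd11 (-0.05, adjusted p = 0.934, and 0.31, adjusted p = 0.280) did not pass.

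**Figure D5:**
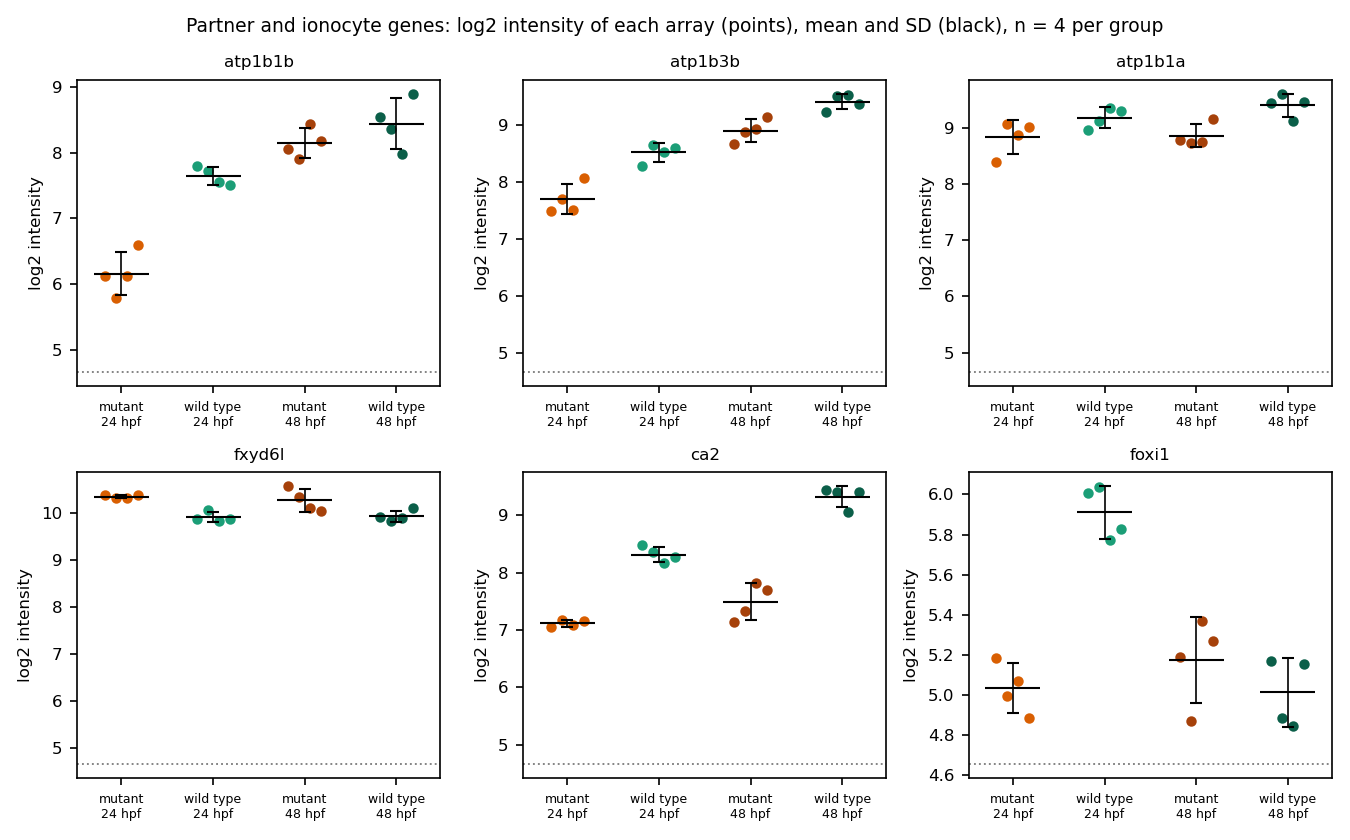
Log2 intensity of 3 beta subunits, fxyd6l and 2 genes of the ionocyte list by group; points are the 4 arrays of a group in replicate order, black lines the mean and SD, and the dotted line the median of the foreign sequences (4.66). The 24 hpf mutants lie below the 24 hpf wild types for atp1b1b, atp1b3b, ca2 and foxi1 with no overlap, and above them for fxyd6l.

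The ionocyte list had 5 measured genes, and of these 2 fell and 3 did not pass at 24 hpf (median change -0.02), and 1 fell and 4 did not pass at 48 hpf (median -0.06). The carbonic anhydrase gene ca2 had a change of -1.20 at 24 hpf (adjusted p = 4.75e-05) and of -1.83 at 48 hpf (adjusted p = 1.03e-07), and its dimmer probe set fell at both ages as well, by 0.58 and 0.55. The forkhead gene foxi1, which in zebrafish is best known from the ear placode and pharyngeal region, fell by 0.88 at 24 hpf (adjusted p = 0.000255) and read 0.16 at 48 hpf (adjusted p = 0.408), a difference between ages of 1.04 ± 0.17 (adjusted p = 0.00403). In wild types foxi1 fell by 0.90 with age, whereas atp1a1a.2 rose. The other genes, slc4a4b, clcn2c and rhcgb, had mean levels of 4.43, 3.80 and 3.43, under the median of the foreign sequences. The summed intensity of the list lay between 213 and 219 in mutants at 24 hpf, against 386 to 469 in wild types, and between 226 and 313 in mutants at 48 hpf, against 608 to 781 in wild types. Most of that sum was ca2, which stayed lower in mutants at 48 hpf. At that age atp1a1a.2 read -0.56 (95% interval -1.03 to -0.08) and atp1b1b -0.30, and neither was called. The ionocyte regulators foxi3a and foxi3b were not analysed here, and the part of ionocyte number in the values of atp1a1a.2 was not tested.

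The pronephros list covers a tissue in which atp1a1a.2 and atp1a1a.4 are also used, and it holds neither of these genes. Of its 16 genes 0 passed at 24 hpf (median change -0.01), with limma adjusted p-values of 0.0781 or more and 3 genes at an unadjusted p under 0.05. At 48 hpf 2 rose and 3 fell (median 0.10), among them cdh17, a cadherin of the pronephric duct, which rose by 0.80. The gene lhx1a fell by 1.13. The gene hnf1bb rose by 0.55 at a mean level of 4.22, and the phosphate transporter gene slc20a1a fell by 0.73 at 3.60. Both of these means lay under the median of the foreign sequences. The summed intensity of the list overlapped between genotypes at both ages. It was 1095 to 1460 in mutants and 962 to 1546 in wild types at 24 hpf. At 48 hpf it was 1031 to 1731 in mutants and 1086 to 1291 in wild types.

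Related ion pumps were read beside the sodium pump. Of 8 calcium pump genes 0 passed at 24 hpf (median change -0.05; the smallest limma adjusted p was 0.152, that of atp2a2a, the only one at an unadjusted p under 0.05). At 48 hpf 2 fell, the sarcoplasmic reticulum pump genes atp2a1l (-1.87 ± 0.32, adjusted p = 0.000732) and atp2a2a (-0.45 ± 0.11, adjusted p = 0.00704), with a list median of -0.15; the dimmer probe set of atp2a2a read 0.18 and was not called. Of 15 vacuolar proton pump genes 1 rose at 24 hpf (median 0.14), and 6 rose and 0 fell at 48 hpf (median 0.38). Among the risen genes were atp6v1c1b (0.62), atp6v0d1 (0.59), atp6v0ca (0.49) and atp6v1ba (0.47).

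Markers of further cell types that the pools hold were read too. At 24 hpf 1 of 18 skeletal muscle, 3 of 12 heart, 2 of 11 erythroid and 2 of 8 epidermis genes fell. Of all probe sets 4.09% were called lower at that age. At 48 hpf 1 of 18, 4 of 12, 8 of 11 and 2 of 8 fell, in the same order, and 2 epidermis genes rose. Then 6.81% of all probe sets were called lower and 8.76% higher. The muscle counts were near these shares. The medians at 24 and 48 hpf were -0.28 and -0.34 for muscle, -0.20 and -0.16 for heart, -0.41 and -1.11 for erythroid genes and 0.01 and -0.25 for epidermis. The epidermal genes did not share a course. The gene agr2 fell at 24 hpf (-1.38, adjusted p = 1.97e-05) and at 48 hpf (-1.46, adjusted p = 2.19e-06). In contrast icn, which encodes a calcium-binding protein of the skin, fell at 24 hpf (-0.85, adjusted p = 0.00160) and read -0.31 at 48 hpf (adjusted p = 0.170). At 48 hpf cldne rose (0.65, adjusted p = 0.00155) and krt5 fell (-0.57, adjusted p = 0.0119), and neither was called at 24 hpf (0.38 and 0.16).

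Beyond atp1b1b, the genes most like each member over the 16 arrays were ranked by Pearson r among 8051 genes, as a description. For atp1a1a.2 they were icn (r = 0.959) and atp1b3b (0.943). The r of the deviations from group means was 0.543 for icn and 0.384 for atp1b3b. For atp1a1b they were the proenkephalin gene penkb (0.937), the cytosolic malate dehydrogenase gene mdh1ab (0.928) and the actin-binding gene cotl1 (0.920). Their r of deviations was 0.874 for penkb, 0.198 for mdh1ab and -0.030 for cotl1. For atp1a1a.4 they were eif2a, krt5 and the Hedgehog pathway gene smo, with r between 0.893 and 0.895. Their r of deviations was 0.465 for eif2a, 0.633 for krt5 and 0.210 for smo. The highest values were lower for atp1a1a.3 (nfkbiab, gadd45ab and synprb, 0.710 to 0.725) and for atp1a1a.5 (elk4, dqx1 and gnai2b, 0.772 to 0.781), whose probe set stayed at background. Here the r of deviations ran from 0.587 to 0.742 for atp1a1a.3 and from 0.783 to 0.792 for atp1a1a.5. Among the members, atp1a1a.2 and atp1a1b had an r of 0.887, and atp1a1a.2 and atp1a1a.3 one of 0.352. For the deviations from group means the order was reversed, with an r of 0.340 for atp1a1a.2 and atp1a1b and 0.729 for atp1a1a.2 and atp1a1a.3.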

How the data were processed

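The authors deposited a table of linear, normalized intensity per probe set. The submitters' processing notes name GCOS, RMA and affy, and their settings are not stated in what was used here. From this intensity, log2 was taken without an offset. Of 15617 probe sets, 115 manufacturer controls were left out. The platform annotation gave 1 symbol to 10795 of those tested, several to 135 and none to 4572. Symbols were updated by gene identifier through RefSeq (GRCz12tu), where 10711 were found and 1 changed. A gene took its value from its probe set of highest mean, and other probe sets are given for some of the genes named.

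A model with 4 group means was fitted to all 16 arrays with limma 3.58.1 in R 4.3.3 (12 residual degrees of freedom, 4.97 from the prior), two-sided, and checked on simulated data. The number of arrays limits the precision. Pools are separate biological replicates per the labels. No 2 arrays held identical values.

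The members and the 12 gene lists (beta subunits, FXYD regulators, calcium pumps, vacuolar proton pump, ionocyte, pronephros, neuron, glia and radial glia, skeletal muscle, heart, erythroid, epidermis) were chosen with earlier results of these data known. Some members of the family are not reported here. Named were every member described, every beta subunit and FXYD gene, the 3 genes most like each member, and rad21a. For the other lists, the genes named came mostly from the 4 of smallest adjusted p over the genotype contrasts. Not all of these were named, and none was named from the skeletal muscle, heart and erythroid lists. Alternatives were array centring, cyclic loess, a filter keeping probe sets above 5 in at least 4 arrays, an offset of 16, an intensity trend, array weights, the replicate number as a block, the arrays of a single age, leaving out each array, and, for the list counts, the mean of a gene's probe sets.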

Additional observations from a re-analysis of the deposited data

Results flagged for a closer look

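The level of atp1a1a.2 on mutant replicate 4 at 24 hpf was 6.69 in log2 intensity. Its gap to the nearest of the other 3 arrays (5.49 to 5.59) took up 0.919 of the group's range. Arrays were picked out where this share was above Dixon's critical value for 4 samples. For atp1a1a.2 this is a description without a test, since the family was chosen for its 24 hpf mutant values. On the same array the mean level of the skeletal muscle list (10.65) and of the neuron list (6.93) was the highest of the 4 mutant arrays of that age. That of the ionocyte list (4.67) was the lowest, but this mean includes slc4a4b, clcn2c and rhcgb, which lay under the median of the foreign sequences. The bright gene of that list, ca2, was not lowest there (7.15, where the 4 arrays ran from 7.04 to 7.18). The part of these differences in the atp1a1a.2 value was not tested. The level of atp1a1a.4 on wild type replicate 3 at 24 hpf was 8.51, and its gap to the others took up 0.832 of the range. In all, 2 of 20 combinations of probe set and group were picked out in this way, and chance gives about 5%. This count includes the 24 hpf mutants of atp1a1a.2, so it is a description and is not read as an excess.

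The genotype change of atp1a1a.2 was -2.07 at 24 hpf and -0.56 at 48 hpf, so it was smaller in size at the later age. The difference of 1.52 on the log2 scale was picked out as a difference between ages. It contains the 24 hpf values for which the family was chosen, so it is a description without a test.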

How the results depend on the processing

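Array centring, cyclic loess, the filter on dim probe sets, the offset, the intensity trend and the fits with the arrays of a single age kept the number of members called within 1.5 times of that reported; the filter left out atp1a1a.5. Array weights raised the call count at 48 hpf to 2, with 3000 calls over the whole table at that age, against 2413. They also gave 2908 calls over the whole table at 24 hpf, against 1139. For the difference between ages they gave 530, against 225. When each array was left out, the members called ranged from 1 to 3 at 48 hpf and from 0 to 1 for the difference between ages. The count for the difference rests on atp1a1a.2 and its 24 hpf mutant values. Member counts stayed at 2 at 24 hpf and at 3 for time in mutants and in wild types. These also include atp1a1a.2 with its 24 hpf arrays, so all but the 48 hpf count are descriptions. Calls over the whole table ranged from 646 to 1376 at 24 hpf and from 1835 to 2762 at 48 hpf. For the difference they ranged from 125 to 231. Changes near 0 turned sign: atp1a1a.3 at 24 hpf read 0.048 with array weights. Across the fits without 1 array it read -0.28 to 0.17 at 24 hpf, and over time in mutants -0.37 to 0.080. The cause was not tested. With the mean of a gene's probe sets, 1 calcium pump and 2 muscle genes were called at 48 hpf, against 2 and 1.

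The shared replicate numbers were not taken as pairs, since not every pair of same-numbered mutant and wild type arrays deviated together: at 24 hpf the correlations were 0.43, -0.31, 0.30 and 0.39, and at 48 hpf they lay between -0.16 and 0.05. With the replicate number as a block the members called stayed at 2 at 24 hpf, 1 at 48 hpf and 1 for the difference between ages. The counts at 24 hpf and for the difference include atp1a1a.2 and are descriptions. With this block 1360 probe sets were called at 24 hpf, and among the members and named genes it ended only the call of fxyd6l at 48 hpf. With 4 arrays per group, changes of dim probe sets are limited by background and those near 0 by the spread between arrays.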
